A study of Mus musculus with 2 samples.

Results

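Open chromatin peaks at the 3′ ends of protein-coding genes were described in newborn mouse thymus. A peak was taken when it occurred in replicate 1, overlapped a peak of replicate 2 and lay on an autosome. Its midpoint had to fall within 1000 bp of the end of a protein-coding gene, outside coding sequence (CDS) and more than 5000 bp from every annotated transcription start site (TSS). The rule used positions and set no limit on the peak scores. The required overlap left out unshared peaks, which include weak ones, so scores were not wholly free of the selection. The rule kept 937 of the 101719 autosomal peaks shared by both replicates (0.921%), at the ends of 794 genes. They are called gene-end peaks below and are set against 45040 other distal peaks, which met the same CDS and TSS rules but lay farther than 1000 bp from every coding gene end.

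DNase-seq maps open chromatin by cutting nuclei with DNase I, which cleaves exposed regulatory DNA preferentially. The tissue was whole thymus of strain B6NCrl on postnatal day 0, healthy, with males and females pooled, in 1 group of 2 biological replicates that carry the same donor label and different biosample labels. Replicate 1 had 154812 peaks and replicate 2 had 139702, each 150 bp wide with a deposited score in whole numbers from 1 to 150. Neither the meaning of the score nor the number of reads is stated in the sources used here, so depth is unknown. An SD over n = 2 below measures how far the replicates lie apart, which may in part be technical. All 7 T lineage markers checked had a promoter peak in both replicates. So did 1 of 3 B cell, 2 of 3 myeloid, 0 of 2 erythroid, 0 of 3 thymic epithelial, 1 of 2 endothelial and 2 of 2 mesenchymal markers, and the cell type that carried a given peak was not measured.

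The 3′ end of a gene holds the untranslated region (UTR) of its mRNA and the site where the transcript is cleaved and given its poly(A) tail, directed in many genes by the signal AATAAA. Sequence around and past gene ends can also hold enhancers, which act on promoters at a distance through bound transcription factors, and binding sites of CTCF, the zinc finger protein that anchors chromatin loops and marks domain borders. In developing T cells, factors of the RUNX, ETS, TCF7/LEF1, GATA and E protein families occupy many such distal elements.

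The sequences of some high-scoring gene-end peaks are shown first, because the CTCF consensus was the clearest sequence feature of the group. Each line gives the GRCm38 (mm10) position and strand, read 5′ to 3′ from the RefSeq sequence, with the CTCF match in capitals. The 4 peaks below have the highest scores among peaks past a gene end with a match and no annotated exon.
Csrp1 peak, chr1:135753056-135753205, minus strand: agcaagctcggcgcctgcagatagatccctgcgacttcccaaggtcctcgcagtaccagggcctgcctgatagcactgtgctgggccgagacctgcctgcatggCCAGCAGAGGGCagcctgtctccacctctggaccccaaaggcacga
Lag3 peak, chr6:124903656-124903805, plus strand: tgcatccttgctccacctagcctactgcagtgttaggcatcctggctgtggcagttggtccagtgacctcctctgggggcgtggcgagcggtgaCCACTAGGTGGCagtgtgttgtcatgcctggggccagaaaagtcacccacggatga
Copz2 peak, chr11:96862056-96862205, minus strand: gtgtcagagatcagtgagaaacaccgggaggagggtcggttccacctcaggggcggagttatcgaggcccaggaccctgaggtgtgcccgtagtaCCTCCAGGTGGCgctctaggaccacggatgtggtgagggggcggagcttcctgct
Bcan peak, chr3:87987076-87987225, minus strand: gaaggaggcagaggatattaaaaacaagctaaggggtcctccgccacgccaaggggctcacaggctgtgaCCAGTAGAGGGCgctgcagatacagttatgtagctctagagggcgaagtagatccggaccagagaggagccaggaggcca

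Some CTCF matches inside genes fell in the gene's own UTR. For 4 of the highest-scoring peaks of this kind, 30 bases around the match are shown, again with the match in capitals.
Ror2 peak, chr13:53109743-53109772, plus strand: catcctccgCCAGCAGGGGGCtcacggagc
Gfod2 peak, chr8:105714342-105714371, plus strand: tgccttcttCCAGTAGGGGGCgctgcagga
Skap2 peak, chr6:51858059-51858088, minus strand: cctaagtggCCAGCAGATGGCagcagcttg
Snu13 peak, chr15:82040840-82040869, minus strand: ggcctctgcCCACTAGATGGCagtagtagc

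The capitals start at base 105 of the Csrp1 sequence, base 95 of Lag3, base 96 of Copz2 and base 71 of Bcan. Across the 147 gene-end peaks with a match, 123 had it within 25 bp of the peak centre, and the median offset was 13 bp. The match therefore lay near the middle of the 150 bp peak in most of them.

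Some peaks past the ends of T cell genes are shown for their place in the tissue, each with a match. The Ikzf3 peak at +772 bp, with scores of 91 in replicate 1 and 88 in replicate 2, held no such match and is not shown. Capitals mark matches to the short consensus sequences that were searched for T cell factors.
Cd2 peak, chr3:101274936-101275085, plus strand: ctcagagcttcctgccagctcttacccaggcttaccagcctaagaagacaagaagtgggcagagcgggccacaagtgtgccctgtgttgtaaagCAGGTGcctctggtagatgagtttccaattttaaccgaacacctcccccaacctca
Ccr7 peak, chr11:99143916-99144065, plus strand: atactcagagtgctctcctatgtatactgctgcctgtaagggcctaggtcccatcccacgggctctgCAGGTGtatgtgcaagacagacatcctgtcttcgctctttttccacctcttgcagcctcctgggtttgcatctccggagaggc
Satb1 peak, chr17:51735256-51735405, plus strand: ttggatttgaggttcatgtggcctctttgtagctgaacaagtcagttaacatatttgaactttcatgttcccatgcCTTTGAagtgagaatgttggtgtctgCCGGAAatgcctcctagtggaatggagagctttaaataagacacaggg

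In the Cd2 and Ccr7 peaks the capitals start at bases 95 and 68 and spell the E protein motif CACCTG on the minus strand. The Satb1 peak holds CTTTGA, the TCF7/LEF1 core, at base 77 and the ETS motif CCGGAA at base 103. A match describes these letters and is no record of binding.

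More gene-end peaks lay past the end than inside the gene. Of the 937, 544 (58.1%) had their midpoint past the last base of the gene and 393 (41.9%) had it inside. The sides also differ in how much sequence could hold a peak under the rule: 8.98 Mb past the end and 8.004 Mb inside. Per Mb of this eligible sequence there were 60.6 shared peaks past the end and 49.1 inside. With all peaks of each replicate counted, shared or not, the density past the end was 85.9 per Mb in replicate 1 and 81.2 in replicate 2, and inside it was 71.0 and 66.2 per Mb. The lower replicate past the end stood above the higher replicate inside, so the difference between the sides was larger than the spread between replicates. The next zone out, up to 5000 bp from an end, had a like difference, with 56.8 shared peaks per Mb past the end and 46.9 inside, so it was not particular to the gene-end peaks.

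The fewest peaks lay in the last 250 bp of the gene. That stretch had 76 gene-end peaks, or 35.6 per Mb, against 51.8 per Mb at −499 to −250 bp and 60.4 per Mb in the first 250 bp past the end (signed distances are negative inside the gene and positive past its end). Counted on their own, replicate 1 had 53.9 and replicate 2 had 44.1 peaks per Mb in the last 250 bp, below all other steps within 1000 bp, in which replicate 1 had at least 74.7 and replicate 2 at least 72.2. The eligible reference sequence of that stretch had a GC content of 39.0%, against 42.9% to 44.4% in the other 250 bp steps within 1000 bp. The gene-end peaks in it averaged 50.6% GC, the lowest of a narrow range of 50.6% to 52.3% over the steps. The part of base composition in the lower density was not tested.

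**Figure D1:**
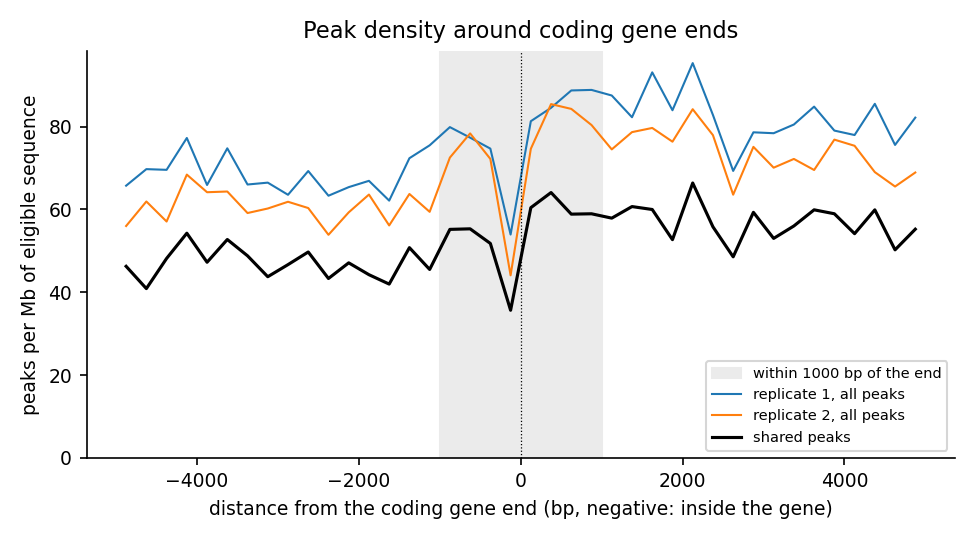
Peaks per Mb of eligible sequence (vertical axis) in 250 bp steps of distance from the nearest coding gene end in bp (horizontal axis, negative inside the gene), for shared peaks (black) and all peaks of replicate 1 (blue) and replicate 2 (orange). The shaded band is the 1000 bp on either side that defines the gene-end peaks, and the lines dip to 35.6, 53.9 and 44.1 per Mb in the last 250 bp of the gene.

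The density at gene ends continued into the sequence around them. Over both sides, the replicates had 76.5 ± 3.33 peaks per Mb (SD, n = 2) within 1000 bp of an end, 72.03 ± 5.87 farther out up to 5000 bp and 33.3 ± 2.71 beyond 5000 bp. Each replicate was higher in the first zone than in the next (78.8 against 76.2 per Mb in replicate 1, 74.1 against 67.9 in replicate 2), but the zones overlapped between replicates. Density beyond 5000 bp was lower than both by more than that spread. For shared peaks, the density within 1000 bp was 1.05 times that in the next zone, and this ratio fell to 0.965 when peaks within 10000 bp of a TSS were left out and to 0.986 when the ends of all transcripts were used. Within each replicate's own list the ratio was 1.03 in replicate 1 and 1.09 in replicate 2. Density at the end was therefore slightly above that of the surrounding 5000 bp in both replicates, but this depended on the settings of the rule.

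Annotation of the midpoints differed by side. Past the end, 476 of the 544 peaks (87.5%) were intergenic, 50 lay in an intron of another gene, 13 in a UTR and 5 in another exon. Inside the gene, 324 of the 393 (82.4%) lay in a UTR, 323 of them in the UTR of the gene itself, 63 in an intron and 6 in another exon. The placement rule fixes much of this. A gene end lay inside the peak in 42 cases, with 30 midpoints past the end and 12 inside, and 18 of these 42 (42.9%) held AATAAA on the gene's strand. Their median scores of 59.5 in replicate 1 and 50.5 in replicate 2 were close to the 60 and 51 of all gene-end peaks.

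The 5 midpoints nearest to an end were at −6 bp in Grasp, which encodes a scaffold protein of metabotropic glutamate receptors, at +6 bp in Mymk, the myoblast fusion factor, at +13 bp in Hs3st5, a heparan sulfate sulfotransferase, and at +21 bp in both Osbp2, an oxysterol-binding protein, and Thegl. Their scores in replicate 1 and replicate 2 were 91 and 71 at Grasp, 47 and 39 at Mymk, 33 and 20 at Hs3st5, 20 and 22 at Osbp2, and 54 and 49 at Thegl. Of these 5, only the Hs3st5 peak had a CTCF match.

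Scores of gene-end peaks were slightly higher than those of other distal peaks. In replicate 1 they ranged from 4 to 130 with a median of 60 (quartiles 42 and 81), against 2 to 140 with a median of 56 (40 and 77) for other distal peaks. In replicate 2 the range was 4 to 144 with a median of 51 (34 and 70), against 4 to 146 and a median of 46 (32 and 67). The medians differed by 4 in replicate 1 and by 5 in replicate 2, with wide overlap of the distributions. When each replicate's own list was used without the overlap filter, the median rank among its autosomal peaks was 50.7 and 48.5 for gene-end peaks, against 44.2 and 44.4 for other distal peaks. The gap had the same direction in both replicates and exceeded their spread, but shared peaks in the next zone out, up to 5000 bp, had medians of 61 and 50, so the higher score was not particular to the gene end itself.

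**Figure D2:**
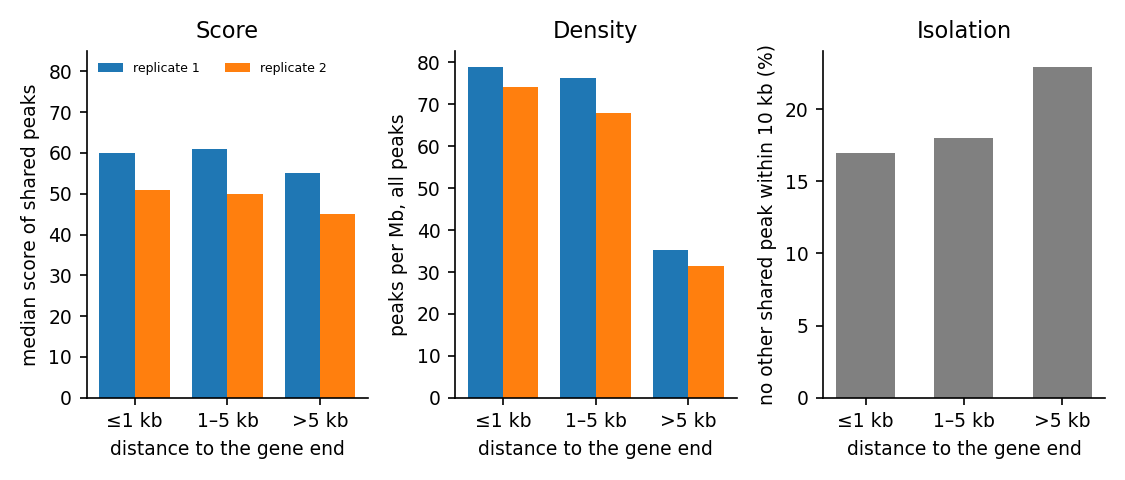
Measures by distance to the nearest coding gene end: the median deposited score of shared peaks (left), peaks per Mb of eligible sequence in each replicate's whole list (middle), and the percentage of shared peaks with no other shared peak within 10 kb (right); replicate 1 is blue, replicate 2 orange and grey bars are shared peaks. Gene-end peaks (≤1 kb) resembled the next zone, with 17.0% and 17.98% isolated, and both differed from the 22.9% beyond 5 kb.

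The sides had like medians and differed at the top. Past the end, the median score was 61 in replicate 1 and 50.5 in replicate 2, and inside the gene it was 59 and 51. Among the top 10% of autosomal shared peaks by replicate 1 score were 21 of the 544 past the end (3.86%) and 4 of the 393 inside (1.02%). By replicate 2 score the shares were 3.31% and 1.78%. For all gene-end peaks the share was 2.67% in either replicate, against 3.03% and 2.15% of other distal peaks. Among these, intergenic peaks had 3.44% in replicate 1 and 2.56% in replicate 2, and intronic peaks 2.66% and 1.77%. A higher share outside genes was therefore not particular to gene ends.

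The 20 highest-scoring gene-end peaks, ranked by replicate 1, lay at 20 genes, 17 past the end and 3 inside. The highest was 449 bp past the end of Fam120a, which encodes an RNA-binding protein, at chr13:48878696-48878845, with scores of 130 in replicate 1 and 134 in replicate 2. It is GC-rich (66.0%) and has 6 other shared peaks within 10 kb. Next were peaks past the ends of 2810021J22Rik (129 and 126), Vezt, which encodes the adherens junction protein vezatin (128 and 133), Acvrl1, the endothelial TGF-β family receptor ALK1 (128 and 122), and Dnajb12, a co-chaperone of the endoplasmic reticulum (125 and 131). Ranking by replicate 1 sets the 20 above the median of all gene-end peaks in that replicate. Each of them was also above the median in replicate 2.

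Of these 20 genes, Cd2 is the one in the T cell lists described below. Lag3, an inhibitory receptor of T cells that neighbours Cd4, had a peak at +631 bp with scores of 121 and 125 and a CTCF match. Cd2, an adhesion and co-stimulatory receptor of T cells, had one at +889 bp, chr3:101274936-101275085, with 120 and 122. Grb2, the adaptor that couples receptors to Ras signalling, had one at +555 bp with 116 and 126. Ticam1, which encodes the Toll-like receptor adaptor TRIF, had one at +29 bp with 114 and 113. Aebp2, a cofactor of Polycomb repressive complex 2, had one at +318 bp with 115 and 99, a wider gap between replicates than at the other 4.

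Csrp1, a LIM domain protein of smooth muscle, had a CTCF-matching peak at +898 bp (124 and 127) with no other shared peak within 10 kb. Cacnb1, a subunit of voltage-gated calcium channels, had a peak without a CTCF match at +78 bp (116 and 120). Draxin, an axon guidance factor, had a peak without a match at +327 bp (118 and 107). The Gadl1 peak, at +974 bp (115 and 117), had no match either. The remaining 3 peaks past the end were at Gprc5c (+673 bp, 119 and 126), Neurl3 (+287 bp, 119 and 109) and Ripor1 (+491 bp, 117 and 123). The 3 inside the gene were in the UTR of Gfpt2, an enzyme of the hexosamine pathway (−703 bp, 124 in both replicates), in an intron at C87436 (−770 bp, 117 and 119), and in the UTR of Ror2, a Wnt5a receptor (−418 bp, 115 and 118, with a CTCF match).

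The scores of the replicates ranked gene-end peaks alike. Spearman's rho across the 937 peaks was 0.900, and 0.888 across other distal peaks; peaks of a library are not independent replicates and share its depth. The score of replicate 2 was lower in 702 gene-end peaks, higher in 207 and equal in 28, with a median difference of −8 (replicate 2 minus replicate 1). The median difference for other distal peaks was also −8. All 937 lay in a hotspot (a wider enriched region) of replicate 1 and 935 (99.8%) in one of replicate 2. Other distal peaks were alike, with 100% and 99.7%. The hotspot carried the capped value of 100 on the −log10 q scale for 66.5% of gene-end peaks in replicate 1 and 60.9% in replicate 2, against 63.8% and 55.4% of other distal peaks.

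The widest gaps between replicates lay at single genes. The UTR of Lars2, which encodes the mitochondrial leucyl-tRNA synthetase, held 3 overlapping peaks with scores of 102 in replicate 1 and 144 in replicate 2 at −656 bp, 88 and 111 at −596 bp, and 73 and 101 at −516 bp. Of the 31-base words of these peaks, 70.0%, 74.2% and 44.2% occurred more than once in the reference. Among all gene-end peaks, 16 (1.71%) had more than 50% of their words repeated, against 1.21% of other distal peaks. The part of repeated sequence in the Lars2 difference was not tested. In the other direction, Ube2h at +339 bp scored 91 and 52, Ipcef1 at +166 bp 92 and 54, and Zc3h7b at +90 bp 68 and 31, none with a repeated word.

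**Figure D3:**
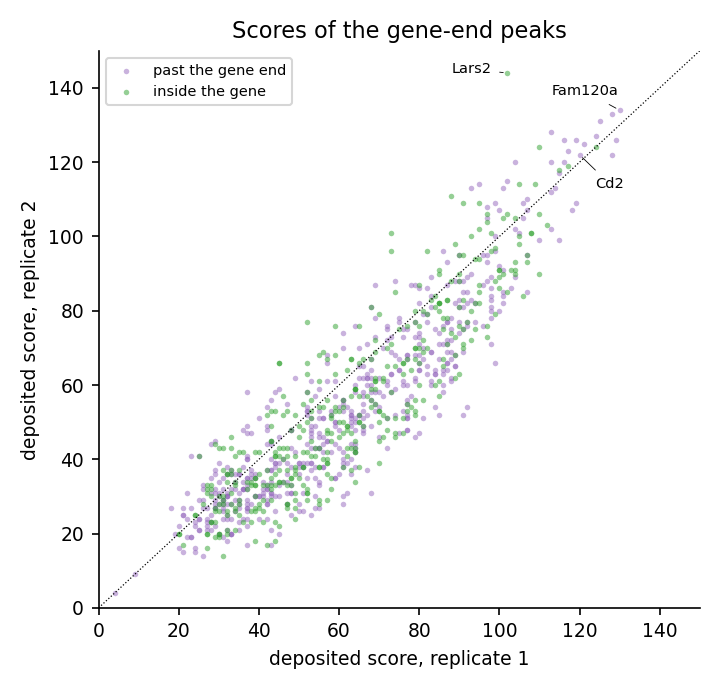
Deposited score in replicate 2 (vertical axis) against replicate 1 (horizontal axis) for the 937 gene-end peaks, past the gene end (purple) or inside the gene (green), with the line of equal scores dotted. Most points lie below the line (702 of 937), while Lars2 (102 and 144) lies farthest above it, and Fam120a and Cd2 are among the highest in both replicates.

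The CTCF consensus of 12 letters was found in 147 gene-end peaks (15.7%), 84 past the end (15.4%) and 63 inside the gene (16.03%). It was found in 10.6% of other distal peaks and in 0.120% of windows of the same width 1000 bp away from gene-end peaks that overlapped no peak. In each replicate's own list the share was 11.4% and 11.6% at gene ends, against 8.004% and 7.91% at other distal peaks, a ratio of 1.44 ± 0.0345 (SD, n = 2). The excess was larger than the spread between replicates. With a longer consensus of 14 letters the shares were 9.18% and 6.20%. Among intergenic and intronic other distal peaks the 12-letter share was 11.9% and 9.44%, both below 15.7%.

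As with density and score, the CTCF share at gene ends ran into the neighbouring sequence. It was 14.8% in the next zone, up to 5000 bp, and 10.3% beyond it. In 1 kb steps it lay between 12.5% and 16.8% within 5000 bp on either side, with no maximum at the end itself. Within the gene-end peaks it was 25% at −499 to −250 bp, 9.21% in the last 250 bp of the gene and 13.2% in the first 250 bp past the end, on 104, 76 and 136 peaks.

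**Figure D4:**
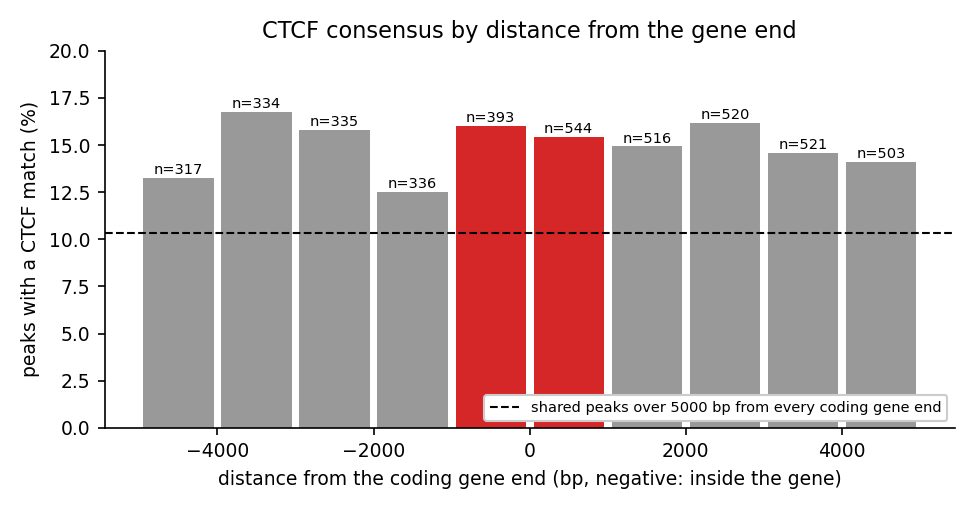
Percentage of shared distal peaks with the CTCF consensus (vertical axis) in 1 kb steps of distance from the nearest coding gene end in bp (horizontal axis, negative inside the gene), with the number of peaks over each bar; red bars are the gene-end peaks and the dashed line is peaks beyond 5000 bp. The red bars, at 16.03% and 15.4%, stand above the dashed line at 10.3% and among the grey bars of 12.5% to 16.8%.

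Gene-end peaks with a CTCF match had higher scores than those without. Their medians were 79 in replicate 1 and 63 in replicate 2, against 56 and 48. Other distal peaks showed the same order, with 71 and 56 against 54 and 45. Gene-end peaks with a match had no other shared peak within 10 kb in 21.1% of cases, against 16.2% of those without; for other distal peaks these shares were 35.5% and 20.98%. The match pointed along the gene's strand in 48 of the 84 peaks past the end and in 28 of the 63 inside.

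The 10 highest-scoring CTCF-matching peaks comprised 4 past the end and 6 inside the gene. Past the end were Csrp1, Lag3, Copz2, a coatomer subunit (+927 bp, 113 and 120), and Bcan, the brain proteoglycan brevican (+381 bp, 113 and 112). Inside the gene were Ror2, Gfod2 (−516 bp, 110 and 106), Skap2, an adaptor of immune cells (−628 bp, 108 and 101), Wfikkn2, a protease inhibitor that binds myostatin (−294 bp, 107 and 93), Traf4, a signalling adaptor of the TRAF family (−791 bp, 106 and 84), and Snu13, a snoRNA- and spliceosome-binding protein (−325 bp, 105 and 100). The Traf4 peak, in an exon other than a UTR, had the widest gap between replicates of the 10.

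The consensus sequences of T cell factors were not more frequent in gene-end peaks than in other distal peaks, apart from the GATA motif by a small margin, and most were somewhat less frequent. The RUNX core TGTGGT was in 21.2% of gene-end peaks and 22.3% of other distal peaks, each motif being searched on both strands. In the same order, the E protein motif CAGCTG was in 16.3% and 16.6%, and CACCTG in 21.2% and 22.2%. The TCF7/LEF1 core CTTTGA was in 12.1% and 14.2%, and the ETS motif CAGGAAGT in 6.19% and 7.41%. The motif AGATAA of the GATA factors was in 6.94% and 6.56%, and the AP-1 motif in 4.38% and 5.78%. In the flanking windows without peaks the shares were 11.8% for TGTGGT, 0.959% for CAGGAAGT and 5.58% for AGATAA. The signal AATAAA was in 9.61% of gene-end peaks, 7.74% of other distal peaks and 17.4% of the flanking windows. The longer RUNX motif TGTGGTTT was in 4.06% and 4.39%, the ETS motif CCGGAA in 3.31% and 3.91%, the NFY motif CCAATCA in 1.81% and 1.59%, and the NRF1 motif in 0.107% and 0.0777%. TGTGGT is part of TGTGGTTT, so these matches overlap.

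Gene-end peaks were close to other distal peaks in base composition and lay nearer to start sites. Mean GC content was 51.3% against 50.3%, and the mean number of CpG sites was 2.79 against 2.46. Gene-end peaks had 2.98 other shared peaks within 10 kb on average, against 2.56. Their median distance to a TSS was 9268 bp, against 15345 bp, and the nearest TSS belonged to the same gene in 46.3%, against 35.2%. Shared peaks in the next zone out, up to 5000 bp from an end, had a like median distance of 9980 bp. Their nearest TSS belonged to the same gene more often than that of gene-end peaks. The nearness to start sites was therefore not particular to the gene end itself. The rule places gene-end peaks beside a gene, and its part in these values was not tested.

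Of 20807 autosomal coding genes, 10542 had eligible sequence at their end and 794 of these (7.53%) had a gene-end peak. A gene end could also be excluded by a nearby start site: 3524 autosomal shared peaks lay within 1000 bp of an end, 2526 of them within 5000 bp of a TSS and 61 of the rest in CDS. Genes with a gene-end peak had an open promoter, a shared peak within 1000 bp of a coding TSS, in 610 cases (76.8%), against 64.2% of the eligible genes without one. Turned round, 8.88% of eligible genes with an open promoter had a gene-end peak, against 5.01% of those without. Both kinds of gene had like lengths (medians of 32.7 and 30.1 kb) and like amounts of eligible sequence (2001 and 1930 bp). In 4 equal groups of rising gene length, 6.07%, 8.20%, 8.24% and 7.63% had one. A next gene that converged on the end was present for 49.6% of genes with a gene-end peak and 46.9% without.

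Some genes of the T cell lists had one, on small counts. Of the T lineage transcription factors, 4 of the 15 with eligible sequence (26.7%) had a gene-end peak: Ikzf3, Satb1, Tcf7 and Zbtb7b. Of the T cell receptor and signalling genes it was 3 of 14 (21.4%), Cd2 and Fyn among them. Of the early thymocyte and recombination genes it was 1 of 11 (9.09%), Ccr7. The background is 7.53% of all eligible genes and 8.88% of those with an open promoter. In the lists of other cell types, 1 of 5 B cell genes had one (Ebf1), 1 of 6 thymic epithelial genes (Foxn1), 1 of 7 endothelial genes (Kdr), 1 of 8 mesenchymal genes (Acta2), and 0 of 3 myeloid, 0 of 2 erythroid and 0 of 6 neuronal genes. With so few genes in each list, 1 gene more or less moves a share widely.

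The 7 T cell genes named here carried 15 gene-end peaks, 7 past the end and 8 inside. Of these, 7 were above the median of all gene-end peaks in both replicates and 6 below it in both, and 1 had a CTCF match. Satb1, a chromatin organizer of thymocytes, had 4: at +857 bp (67 in replicate 1 and 71 in replicate 2), +377 bp (53 and 61), −683 bp (46 and 40) and −903 bp (47 and 53). Both of its peaks past the end scored higher than both in its UTR, in either replicate. Ikzf3, the lymphoid factor Aiolos, had 3 in the same order, at +772 bp (91 and 88), +192 bp (72 and 75) and −328 bp (43 and 32), with 11 other shared peaks within 10 kb of each.

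Tcf7, which encodes the Notch-induced factor TCF-1 of early T cells, had 3 low-scoring peaks among 17 or 18 shared neighbours within 10 kb. They lay at +541 bp (43 and 40), −239 bp (29 and 44) and −699 bp (33 and 46), with the order of the sides turned between replicates. Zbtb7b, which encodes ThPOK, the factor of the CD4 lineage, had a CTCF-matching peak at −846 bp (85 and 82), near the end of the convergent gene Dcst2. Fyn, a Src family kinase of the T cell receptor, had a peak at −471 bp (44 and 42). Ccr7, the chemokine receptor that guides maturing thymocytes to the medulla, had peaks at +206 bp (77 and 75) and −454 bp (66 and 67).

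**Figure D5:**
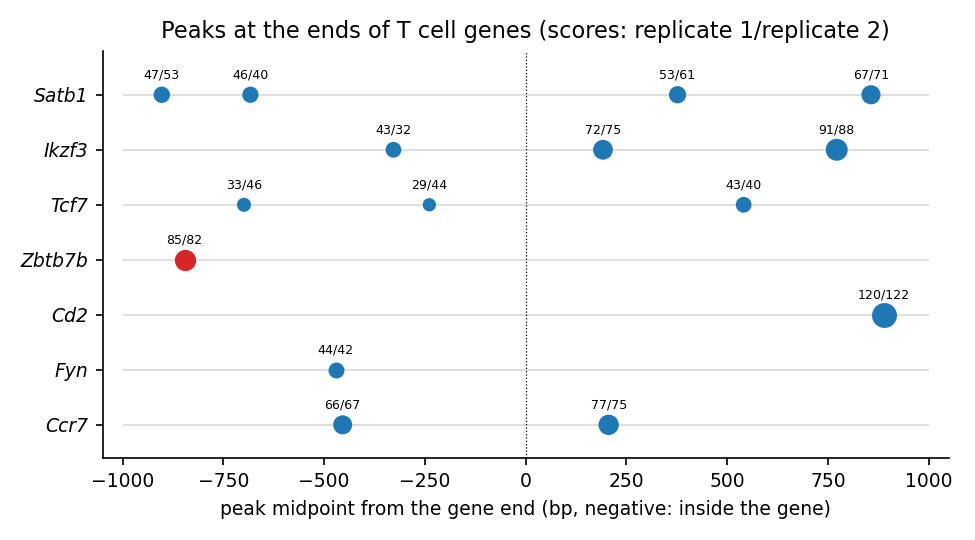
Gene-end peaks of the 7 T cell genes named, 1 row a gene, by the distance of the peak midpoint from the gene end in bp (horizontal axis, negative inside the gene), with the scores of replicate 1 and replicate 2 over each point; point area follows the replicate 1 score and red marks the CTCF match at Zbtb7b. The 15 points lie on both sides, and Cd2 (120/122), past the end, has the highest scores.

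Single genes of other cell types had gene-end peaks as well. Ebf1, the B lineage factor, had a CTCF-matching peak at +199 bp (75 and 77), 96152 bp from the nearest TSS, its own. Foxn1, the master factor of thymic epithelium, had a peak in its UTR at −913 bp (85 and 80). The Foxn1 promoter had no peak in both replicates, and the TSS nearest to the gene-end peak was that of Unc119. Acta2, smooth muscle actin, had a peak at −340 bp (78 and 54). Kdr, the VEGF receptor of endothelium, had a peak at −743 bp (45 and 34). The Foxn1, Acta2 and Kdr peaks scored lower in replicate 2, as did 702 of all 937 gene-end peaks.

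Several gene ends held more than 1 peak. One was found at 681 genes, 2 at 88, 3 at 21, 4 at 3 and 5 at 1, and 55 genes had peaks on both sides of the end. Fhl3, a LIM domain protein, had 5, at +39 bp (95 and 114), +559 bp (68 and 81), −301 bp (59 and 63), −581 bp (57 and 47) and −181 bp (56 and 69). Those with 4 were Satb1, Gm525 and Pou2f2, which encodes the lymphoid octamer factor Oct-2. The Pou2f2 peaks lay at −826 bp (64 and 42), +494 bp (52 and 54, with a CTCF match), −146 bp (44 and 36) and +114 bp (30 and 31).

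Among genes with 3, Fgfr1, a fibroblast growth factor receptor, had high scores at +512 bp (107 and 95), +792 bp (99 and 100) and −408 bp (80 and 76, with a CTCF match). Bcan had, beside its CTCF-matching peak, ones at −259 bp (109 and 114) and −739 bp (87 and 83). Irf4, a factor of activated lymphocytes, had middling ones at +34 bp (59 and 61), −926 bp (52 and 50) and +394 bp (47 and 55). Peaks of the same gene end are not independent: 46 gene-end peaks overlapped another, joining gave 913 regions, and the 937 matched 921 distinct peaks of replicate 2.

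Some peaks served more than 1 gene end. Of the 35 near the ends of several coding genes, 31 lay near ends of genes on opposite strands, called convergent ends here. The highest-scoring of these include the Snu13 peak, which is also near the end of Xrcc6, and peaks at Shf (+222 bp, 104 and 120), Map1lc3b, the autophagy protein LC3B (+310 bp, 98 and 71), and Grpel1, a mitochondrial co-chaperone (+410 bp, 91 and 75). Of those named, the gap between replicates was widest at Map1lc3b. Among the 35, 2 lay at the shared end of the protocadherin gamma cluster, near 20 or more gene ends each: Pcdhga9 at −380 bp (68 and 59) and Diaph1 at +831 bp (37 and 41).

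At the limits of the rule, the peaks just inside the 1000 bp limit were at Cdh16 (−999 bp, 110 and 90) and Nolc1 (+1000 bp, 70 and 62), and those just outside at Katnal2 (−1002 bp, 86 and 79) and Slc6a13 (−1003 bp, 77 and 72). At the 5000 bp limit from a TSS, Nkx6-3 at 5001 bp (29 and 26) and Sfrp5 at 5002 bp (25 and 24) were just inside, and Aqp11 at 4978 bp (97 and 95) and Npm2 at 4982 bp (62 and 60) just outside.

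Gene-end peaks in replicate 1 alone numbered 1339 by position and in replicate 2 alone 1259, a mean of 1299 ± 56.6 (SD, n = 2). Of these, 70.0% and 75.7% overlapped a peak of the other replicate, against 66.1% and 74.2% of other distal peaks. The share inside the gene was 42.4% and 42.1%.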

How the data were processed

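DNase-seq was deposited for 2 replicates of 1 group. Peaks and hotspots were called for each replicate alone on mm10, per the descriptive text deposited with them; no aligner, caller, threshold or read total is named (not given in the sources used here). Each deposited peak score is a whole number from 1 to 150 of unstated meaning and was used to rank and describe peaks within a list. The deposited hotspot value is a −log10 q, from 1.30 to a cap of 100, which hides differences among strong hotspots. A few deposited scores carry a decimal point (50 gene-end peaks), and they were left out in 1 alternative added after the data were seen.

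Midpoints were set against GENCODE release M21 on GRCm38, with overlap of at least 1 bp; positions count from 1. Eligible sequence is every autosomal position that meets the CDS and TSS rules. Sequence came from RefSeq, and 31-base words were counted over chromosomes, mitochondrial sequence and unplaced contigs. Motifs were searched on both strands of the 150 bp peak; flanking windows lay 1000 bp to either side, without peaks. No test was run: there is 1 group of 2 samples, and peaks are not replicates. Values are given per replicate with the SD. The peaks, gene lists and motifs were chosen with earlier results of these data known.

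Named genes were those at the 20 highest replicate 1 scores, with 2 or more gene-end peaks, in a gene list, at the 5 midpoints nearest to an end, at the 5 highest-scoring convergent ends, at the 10 highest-scoring CTCF matches, and next to each limit; the results of 2 of these genes are not reported here. The genes with the widest replicate differences and those of the protocadherin cluster were chosen after their values were seen. The rule, the eligible sequence and the motif search were tested on simulated or exhaustively counted positions. Scripts ran in Python 3.11.15 with pysam 0.24.0, numpy 2.4.6, scipy 1.17.1, pandas 2.3.3 and matplotlib 3.10.9.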

Additional observations from a re-analysis of the deposited data

How the results depend on the processing

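The number of gene-end peaks, 937, followed the rule's distances: it was 451 with the stronger 50% of shared peaks, 462 within 500 bp of the end, 1484 over 2500 bp and 424 over 10000 bp from every TSS, and 1927 with the ends of all transcripts. Each replicate's own list gave 1259 to 1339. The share inside the gene, 41.9%, stayed below 50% in all of these alternatives: it was 41.7% with the stronger 50%, 39.4% within 500 bp, 40.6% and 39.6% over 2500 and 10000 bp from a TSS, 44.3% with all transcript ends, 40.5% with no base of the peak in CDS, 41.5% without scores written with a decimal point and 42.1% to 42.4% in the replicates' own lists. The median score rank of 49.4 was 42.0 with the stronger 50%, ranked among themselves, and 51.7 over 2500 bp from a TSS. The density ratio of 1.05 turned to 0.965 over 10000 bp from a TSS and to 0.986 with all transcript ends, and was 1.03 to 1.09 in the replicates' own lists; the cause was not tested.

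The CTCF share of 15.7% was 16.3% with a reciprocal overlap of 50%, 15.01% for peaks of replicate 2, 23.9% with the stronger 50%, 16.02% within 500 bp, 15.3% and 17.7% over 2500 and 10000 bp from a TSS, 14.4% with all transcript ends, 9.18% with the longer consensus, 16.5% without decimal points and 11.4% to 11.6% in the replicates' own lists, which include weak unshared peaks. No paired comparison between groups was possible because there is 1 group. Read depth is unknown, so a gene end without a peak may be a matter of depth.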
